A study of Homo sapiens with 9 samples.

Results

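The genes described here are 42 interferon-stimulated antiviral effectors, that is, proteins that cells make in response to interferon and that act against viruses or on the cell's own immune signalling. They were listed by gene symbol and grouped by family, with no threshold on a measured value, at a time when results of these data were known. For each gene the probe set (a group of short probes for 1 transcript) with the highest mean signal over all 9 arrays was used. All 42 were measured, among 19775 genes with a usable probe set. The cells were Daudi, an established B-cell line derived from a Burkitt lymphoma, in which a translocation places MYC under immunoglobulin gene control. Ctrl-sh cells carried a control short hairpin RNA, Slc7a5-sh cells one that targets Slc7a5, and C-Myc-sh cells, which served as the positive control, one that targets C-Myc. All 3 groups were infected and then kept in puromycin for 48 h to select infected cells. Each group had 3 arrays, called biological replicates in the titles. Whether each replicate was its own infection is not given in the sources used here, and p-values therefore measure only the spread between these samples, which may be technical. The number of hairpins per target and their sequences are not given in the sources used here, so that a group may represent 1 hairpin.

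Type I interferons bind the IFNAR1 and IFNAR2 receptor pair, which activates the kinases JAK1 and TYK2. Their signal leads to a complex containing IRF9 that binds the interferon-stimulated response element, a pair of GAAA-like repeats, in the promoters of target genes. The products include enzymes that detect or destroy viral RNA (OAS, EIF2AK2, ISG20), proteins that block viral entry or budding at membranes (IFITM, BST2), and large GTPases that trap viral components (MX, GBP). SLC7A5 is the large neutral amino acid transporter also known as LAT1, and MYC is the transcription factor whose protein is called c-Myc.

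Promoters are shown for 6 members that were chosen because they hold the letters of that element. A RefSeq promoter window (GRCh38.p14, 250 bases before to 50 after the start) was matched for 35 members, and each window was searched on both strands for GAAA, any 2 bases and GAAA again. Of the 35 genes, 26 (74.3%) held these letters in at least 1 window, against 3.98% of genes on the array. Counted by window rather than by gene, the shares were 60.0% of 50 member windows and 3.02% of 21490 windows of genes on the array. In 19 of the 26 members a match began within 100 bases before the start. The 6 below had the smallest p in C-Myc-sh against Ctrl-sh among the members that held the letters. SAMD9L and OAS1 had a smaller p than MX1, but their windows did not hold the letters and are not shown. Each stretch runs 5′ to 3′ on the gene's strand from 170 bases before the start to 25 after it, and capitals mark the match or its reverse complement. SAMD9 lies at chr7:93117955-93118149, minus strand. EIF2AK2 lies at chr2:37156956-37157150, minus strand. IFI6 lies at chr1:27672168-27672362, minus strand. IFI44 lies at chr1:78649619-78649813, plus strand. EPSTI1 lies at chr13:42992217-42992411, minus strand. MX1 lies at chr21:41420388-41420582, plus strand.
SAMD9: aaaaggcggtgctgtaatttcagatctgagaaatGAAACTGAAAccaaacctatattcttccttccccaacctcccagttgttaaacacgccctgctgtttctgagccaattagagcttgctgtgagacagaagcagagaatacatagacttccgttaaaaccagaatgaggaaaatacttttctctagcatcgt
EIF2AK2: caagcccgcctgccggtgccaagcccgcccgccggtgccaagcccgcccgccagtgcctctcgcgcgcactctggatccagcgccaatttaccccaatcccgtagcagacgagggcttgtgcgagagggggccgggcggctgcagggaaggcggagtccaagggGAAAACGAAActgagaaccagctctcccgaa
IFI6: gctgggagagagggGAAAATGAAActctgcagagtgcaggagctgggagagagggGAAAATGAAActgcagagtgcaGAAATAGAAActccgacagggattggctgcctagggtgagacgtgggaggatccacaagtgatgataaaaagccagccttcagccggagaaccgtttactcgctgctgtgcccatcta
IFI44: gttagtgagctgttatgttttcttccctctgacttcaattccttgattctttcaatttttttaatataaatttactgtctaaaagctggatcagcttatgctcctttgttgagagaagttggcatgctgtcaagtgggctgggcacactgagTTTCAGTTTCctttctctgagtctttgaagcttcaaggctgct
EPSTI1: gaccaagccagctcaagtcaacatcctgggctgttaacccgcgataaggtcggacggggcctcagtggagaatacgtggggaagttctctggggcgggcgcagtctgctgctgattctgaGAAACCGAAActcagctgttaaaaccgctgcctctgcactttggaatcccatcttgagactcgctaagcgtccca
MX1: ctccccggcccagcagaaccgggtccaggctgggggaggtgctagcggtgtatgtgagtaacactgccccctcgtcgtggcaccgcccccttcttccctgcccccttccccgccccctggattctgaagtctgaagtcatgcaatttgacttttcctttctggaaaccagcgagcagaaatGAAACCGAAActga
IFI6 held 3 matches in the stretch shown and the others 1 each. A match is a description of the letters, not evidence that the site is bound. Of the 26 members with the letters, 21 were called higher in C-Myc-sh than in Ctrl-sh, with a median log2 difference over the 26 of 2.44. Of the 9 members with a window but without the letters, 7 were called higher, with a median of 1.74. These 9 were ADAR, CMPK2, IFI16, IFI35, OAS1, SAMD9L, SP100, SP110 and XAF1. Over all genes, 16.0% were called higher in C-Myc-sh. No promoter was matched for OAS2, OASL, MX2, IFITM2, GBP2, TRIM22 and LY6E.

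All values are log2 signals, 1 per array. A signal was treated as near background where the mean of a group lay below 5.77 (54.6 on the linear scale), the median of all probe-set means. Arrays correlated with r of 0.914 to 0.924 within groups and 0.895 to 0.922 between groups. The SLC7A5 signal fell by 0.32 ± 0.07 (SE) on the log2 scale in Slc7a5-sh (limma adjusted p = 0.00483) and by 0.41 ± 0.07 in C-Myc-sh (0.000166). The MYC signal fell by 0.35 ± 0.06 in Slc7a5-sh (0.000459) and by 1.09 ± 0.06 in C-Myc-sh (5.41e-11). With limma's variance trend left out, neither fall in Slc7a5-sh passed the test. The cell line's label was checked on 9 B-cell markers, among them CD79A, CD79B, MS4A1 and PAX5, and 0 of the 9 were below 5.77 in any group.

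Most of the antiviral genes were higher in the C-Myc-sh cells than in the control cells, several of them by more than 4 on the log2 scale. The 8 called higher by at least 4 were IFI44L, the RNA helicase DDX60, IFI27, the GTPase GBP1, the dynamin-like GTPase MX1, IFI44, EPSTI1 and IFI6. Of these, IFI44L, DDX60, IFI27 and GBP1 had Ctrl-sh means near background, and counted only above that level IFI27 rose by 3.73 and GBP1 by 2.76, which leaves 6 of the 8 at 4 or more. OAS1, OAS2, the PARP group and the SAMD9 pair rose by 1.54 to 3.71. IFI16 and ISG20 fell. At an adjusted p under 0.05 (limma, Benjamini-Hochberg over all 19775 genes, two-sided), 32 of 42 members were called higher and 2 lower, and 8 were not called. Over all genes, 30.5% were called, 16.0% higher (3162) and 14.5% lower (2860). The median log2 difference was 2.00 over the members and 0.0444 over all genes. Centring each array on its median moved the split over all genes to 2404 higher and 3435 lower and their median to -0.0846, and 39 of the 42 members lay above the median of all genes with and without it. Of the members, 26 were called higher by at least 1, against 5.08% of all genes. By at least 2 there were 20 and by at least 4 there were 8, thresholds at which the share of all genes was not counted. By log2 difference alone, IFI6, the lowest of these 8, had rank 32 of 19775 genes. The 3 C-Myc-sh arrays lay wholly above the 3 Ctrl-sh arrays for 35 members and wholly below for 2, against 21.8% and 18.8% of all genes. In bulk RNA, a change in the share of cells that express a gene and a change in the RNA per cell cannot be told apart. Leaving out any 1 array kept 31 of the 32 calls of higher signal, the exception being LAP3 (0.22 to 0.24 where it was lost).

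**Figure D1:**
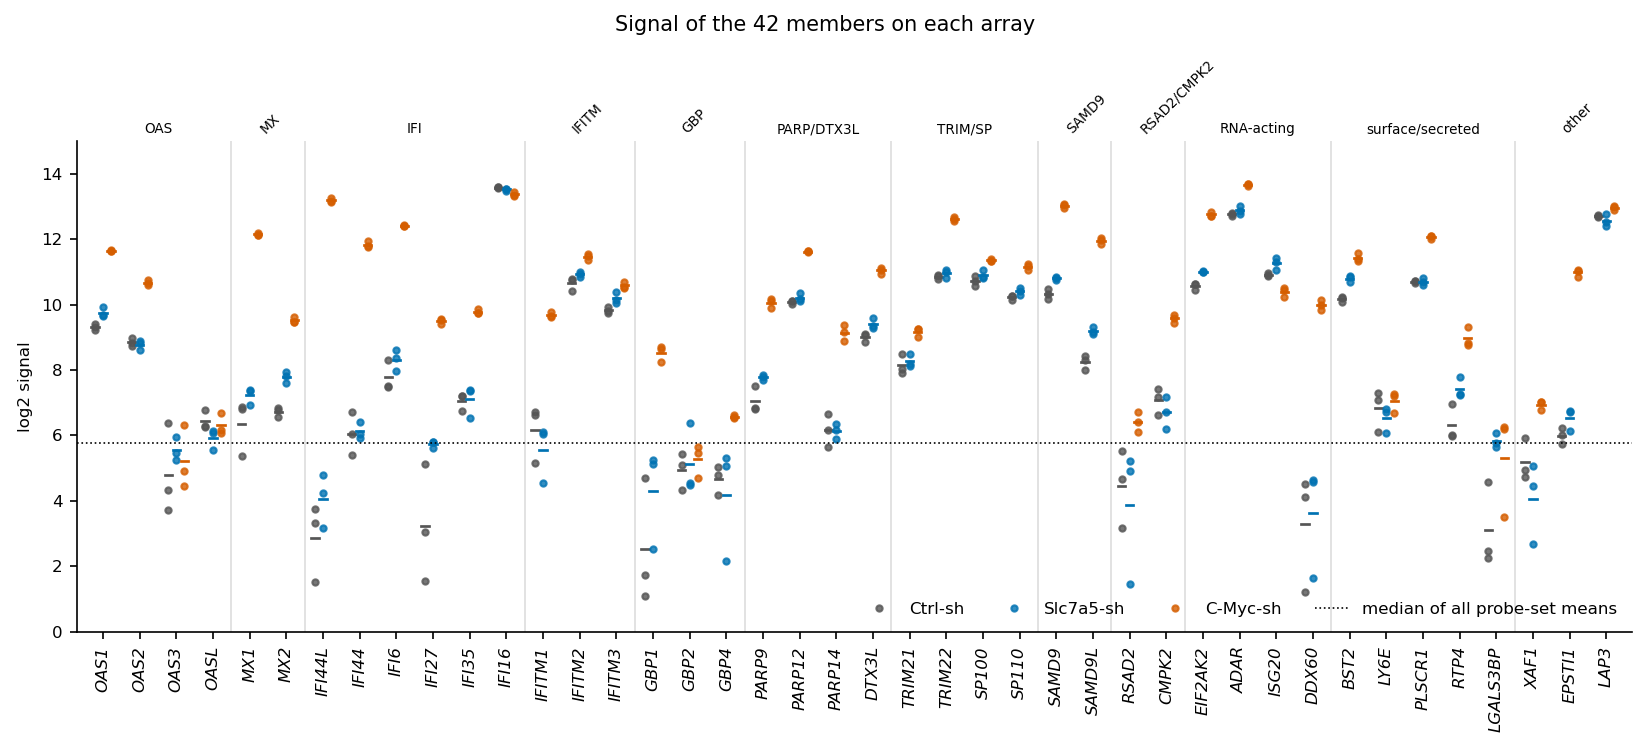
Log2 signal (vertical axis) of each of the 42 genes (horizontal axis, grouped by family) on each array; dots are arrays coloured by group (3 per group), short bars are group means and the dotted line is the median of all probe-set means, 5.77. The C-Myc-sh dots lie wholly above the Ctrl-sh dots for 35 genes, and 10 genes have a Ctrl-sh mean below the dotted line.

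Of the 42 members, 10 were near background in Ctrl-sh: OAS3, IFI44L, IFI27, GBP1, GBP2, GBP4, RSAD2, DDX60, LGALS3BP and XAF1. Their replicate SDs in Ctrl-sh ran from 0.44 to 1.92, against 0.02 to 0.88 for the other 32. For them a second value is given, in which every signal under 5.77 was raised to 5.77, so that only the rise above that level counts. Raising the signals removes most or all of the spread between their Ctrl-sh arrays, so this value is given as a size with no test. Of the 10, 4 were called higher in C-Myc-sh (IFI44L, IFI27, GBP1 and DDX60). Of the 32 members at or above the level in Ctrl-sh, 28 were called higher. In Slc7a5-sh 10 members were near background, and in C-Myc-sh 3 (OAS3, GBP2 and LGALS3BP). The counts by family below stand against 16.0% of all genes called higher and 14.5% lower in C-Myc-sh. In Slc7a5-sh these shares were 7.31% and 5.53%.

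In the OAS family, which makes the oligoadenylates that switch on RNA decay by RNase L, 2 of 4 genes rose in C-Myc-sh and 1 rose in Slc7a5-sh. OAS1 signals were 9.39, 9.31 and 9.22 in Ctrl-sh, 9.93, 9.66 and 9.67 in Slc7a5-sh, and 11.64, 11.65 and 11.67 in C-Myc-sh (replicates 1 to 3 of each group, as in all such lists below). The 3 groups did not overlap, with Ctrl-sh lowest and C-Myc-sh highest. OAS1 was higher by 2.35 ± 0.09 (SE) in C-Myc-sh, a 5.09-fold difference (limma adjusted p = 1.36e-12), and by 0.45 ± 0.09 in Slc7a5-sh, 1.36-fold (0.00283). OAS2 had means of 8.85, 8.77 and 10.67 in the Ctrl-sh, Slc7a5-sh and then the C-Myc-sh group, and rose by 1.83 ± 0.12 in C-Myc-sh (limma adjusted p = 6.52e-10). The other two OAS2 probe sets, with Ctrl-sh means of 8.25 and 7.42, gave 0.23 and 0.61 in C-Myc-sh, neither called (limma adjusted p over all probe sets 0.532 and 0.148), and the mean of the 3 gave 0.89. OASL, a family member that lacks the synthetase activity, was 6.29, 6.78 and 6.27 in Ctrl-sh, 6.13, 6.09 and 5.54 in Slc7a5-sh, and 6.69, 6.18 and 6.07 in C-Myc-sh. Its C-Myc-sh and Ctrl-sh arrays overlapped, with a difference of -0.13 ± 0.50 (limma adjusted p = 0.899). Its Slc7a5-sh arrays all lay below its Ctrl-sh arrays, but the difference of -0.53 ± 0.50 was not called (0.610). A second OASL probe set, near background in Ctrl-sh, gave a difference of 2.44 in C-Myc-sh that was not called either (adjusted p over all probe sets 0.131). OAS3 was near background in all 3 groups, with means of 4.80, 5.55 and 5.22, so that no fold is given for it. Above the level its difference from Ctrl-sh was -0.02 for C-Myc-sh and -0.15 for Slc7a5-sh.

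Both MX genes, which encode interferon-induced GTPases that trap viral nucleocapsids, rose in C-Myc-sh. MX1 signals were 5.38, 6.81 and 6.87 in Ctrl-sh, 7.38, 7.35 and 6.94 in Slc7a5-sh, and 12.13, 12.20 and 12.13 in C-Myc-sh. Each C-Myc-sh array was above 12, and the highest Ctrl-sh array was below the lowest Slc7a5-sh array. MX1 was higher in C-Myc-sh by 5.80 ± 0.29, 55.6-fold (limma adjusted p = 2.41e-11). Its difference in Slc7a5-sh, 0.87 ± 0.29, missed the threshold (0.0564) and passed it without Ctrl-sh replicate 2 (1.10) or replicate 3 (1.13). MX2, which acts at the nuclear pore, had signals of 6.79, 6.55 and 6.83 in Ctrl-sh, 7.60, 7.83 and 7.94 in Slc7a5-sh, and 9.63, 9.47 and 9.48 in C-Myc-sh. The 3 groups were fully separated in the same order. MX2 was higher by 2.80 ± 0.21 in C-Myc-sh, 6.99-fold (limma adjusted p = 3.92e-09), and by 1.06 ± 0.21 in Slc7a5-sh, 2.09-fold (0.00170).

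The IFI genes, named only for their induction by interferon, included the member with the largest rise, IFI44L, and one that fell. IFI44L signals were 1.53, 3.33 and 3.74 in Ctrl-sh, 4.23, 3.16 and 4.80 in Slc7a5-sh, and 13.13, 13.18 and 13.26 in C-Myc-sh. Ctrl-sh and Slc7a5-sh overlapped below the level of 5.77, and C-Myc-sh was far above it with a narrow spread (13.19 ± 0.07, SD, n = 3). The difference was 10.33 ± 0.55 as measured (limma adjusted p = 6.66e-11) and 7.42, or 172-fold, above the level. Its neighbour on chromosome 1, IFI44, had group means of 6.05, 6.12 and 11.84 and rose by 5.78 ± 0.28 in C-Myc-sh (1.70e-11). IFI6, a small membrane protein, went from 7.77 ± 0.47 (SD, n = 3) in Ctrl-sh to 12.41 ± 0.01 in C-Myc-sh, a difference of 4.64 ± 0.19 or 24.9-fold (limma adjusted p = 2.16e-12). In Slc7a5-sh its difference of 0.54 ± 0.19 was not called (0.0754) and was called without Ctrl-sh replicate 3 (0.81) or Slc7a5-sh replicate 2 (0.71). IFI35, a leucine-zipper protein, rose by 2.73 ± 0.25 in C-Myc-sh (limma adjusted p = 7.39e-08), with 0.04 ± 0.25 in Slc7a5-sh (0.948).

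IFI27 and IFI16 stood apart from the other IFI genes. IFI27, a mitochondrial protein, had signals of 3.05, 1.53 and 5.13 in Ctrl-sh, 5.80, 5.61 and 5.80 in Slc7a5-sh, and 9.55, 9.42 and 9.52 in C-Myc-sh. All Slc7a5-sh arrays lay above all Ctrl-sh arrays, but the means of both groups were under 5.77. The Slc7a5-sh difference of 2.49 ± 0.70 was called (limma adjusted p = 0.0239), yet above the level it was 0.02, and no fold is given. In C-Myc-sh IFI27 was higher by 6.26 ± 0.70 (limma adjusted p = 9.79e-07), which was 3.73 or 13.2-fold above the level. IFI16, a nuclear sensor of DNA, had signals of 13.60, 13.55 and 13.58 in Ctrl-sh, 13.54, 13.49 and 13.54 in Slc7a5-sh, and 13.33, 13.34 and 13.44 in C-Myc-sh. Its arrays hardly varied, and C-Myc-sh lay wholly below both other groups. IFI16 fell by 0.21 ± 0.05 in C-Myc-sh (limma adjusted p = 0.00511). Under quantile normalization this difference turned to 0.017 and was not called, and without limma's variance trend it was not called either (adjusted p = 0.0964). Of the other two IFI16 probe sets, one was also lower (-0.16, limma adjusted p over all probe sets 0.0299) and one was not called (-0.093, 0.363).

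The IFITM proteins sit in membranes and hinder the fusion of viral envelopes. All 3 genes rose in C-Myc-sh, IFITM1 by the most. IFITM1 signals were 6.63, 6.71 and 5.15 in Ctrl-sh, 6.03, 6.11 and 4.55 in Slc7a5-sh, and 9.78, 9.65 and 9.62 in C-Myc-sh. Ctrl-sh and Slc7a5-sh overlapped and varied by over 1, while C-Myc-sh was tight and above both. The difference in C-Myc-sh was 3.52 ± 0.46, 11.5-fold (limma adjusted p = 6.46e-06), and that in Slc7a5-sh -0.60 ± 0.46 (0.505). IFITM3 signals were 9.81, 9.92 and 9.74 in Ctrl-sh, 10.04, 10.15 and 10.39 in Slc7a5-sh, and 10.54, 10.52 and 10.70 in C-Myc-sh. The groups did not overlap and stood in the order Ctrl-sh, Slc7a5-sh, C-Myc-sh. IFITM3 was higher by 0.76 ± 0.10 in C-Myc-sh (limma adjusted p = 7.24e-06) and by 0.37 ± 0.10 in Slc7a5-sh (0.0192). IFITM2 rose by 0.82 ± 0.09 in C-Myc-sh (limma adjusted p = 1.08e-06). In Slc7a5-sh its difference of 0.28 ± 0.09 was not called (0.0626), and it was called without Ctrl-sh replicate 1 (0.34). The probe sets of IFITM1, IFITM2 and IFITM3 are all of a type that can bind related transcripts, so signal may be shared between these closely related genes.

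Of the guanylate-binding proteins, GTPases that coat intracellular pathogens and are strongly induced by interferon gamma, 1 of 3 rose in C-Myc-sh. GBP1 signals were 1.74, 4.69 and 1.10 in Ctrl-sh, 5.23, 2.51 and 5.13 in Slc7a5-sh, and 8.70, 8.23 and 8.65 in C-Myc-sh. Every Ctrl-sh and Slc7a5-sh array was below 5.77 and every C-Myc-sh array above 8. GBP1 was higher by 6.02 ± 1.00 (limma adjusted p = 9.75e-05), which was 2.76 or 6.76-fold above the level. GBP1 has 4 probe sets, of which 3 rose in C-Myc-sh and the other, whose group means were all below 5.77, fell by 3.39 (adjusted p over all probe sets 0.0191). GBP2 was 5.42, 4.34 and 5.10 in Ctrl-sh, 6.38, 4.55 and 4.49 in Slc7a5-sh, and 4.69, 5.65 and 5.46 in C-Myc-sh, with all group means below the level and the groups overlapping, and its C-Myc-sh difference was 0.31 ± 0.81 (limma adjusted p = 0.852), or 0 above the level. GBP4 had means of 4.67 in Ctrl-sh and 6.58 in C-Myc-sh, with all C-Myc-sh arrays above all Ctrl-sh arrays. Its difference of 1.91 ± 0.88 was not called (0.126), and the rise above the level was 0.81. The measured difference was called without Slc7a5-sh replicate 3 (1.91), an array that enters only the spread, with the 6 arrays alone, and with the mean of its probe sets (2.43).

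The 4 genes of the PARP group all rose in C-Myc-sh. PARP9, PARP12 and PARP14 are ADP-ribosyltransferase family members, and DTX3L is the ubiquitin ligase that partners PARP9. PARP9 signals were 6.85, 6.80 and 7.51 in Ctrl-sh, 7.86, 7.71 and 7.79 in Slc7a5-sh, and 9.88, 10.11 and 10.16 in C-Myc-sh. The groups were separated in the order Ctrl-sh, Slc7a5-sh, C-Myc-sh. PARP9 was higher by 2.997 ± 0.21 in C-Myc-sh, 7.98-fold (limma adjusted p = 1.75e-09), and by 0.73 ± 0.21 in Slc7a5-sh, 1.66-fold (0.0244). Its other probe set, with a Ctrl-sh mean of 7.21, rose less in C-Myc-sh, by 2.03 (limma adjusted p over all probe sets 9.13e-07). DTX3L signals were 8.85, 9.06 and 9.11 in Ctrl-sh, 9.35, 9.58 and 9.30 in Slc7a5-sh, and 11.12, 10.95 and 11.07 in C-Myc-sh. DTX3L, which lies next to PARP9 on chromosome 3, was separated in the same order. It was higher by 2.04 ± 0.11 in C-Myc-sh (limma adjusted p = 6.30e-11) and by 0.40 ± 0.11 in Slc7a5-sh (0.0192). PARP12 signals were 10.11, 10.03 and 10.10 in Ctrl-sh, 10.12, 10.16 and 10.36 in Slc7a5-sh, and 11.63, 11.63 and 11.61 in C-Myc-sh. Its Ctrl-sh and Slc7a5-sh arrays nearly met, and C-Myc-sh was higher by 1.54 ± 0.08 (limma adjusted p = 4.70e-11). PARP14 rose by 2.99 ± 0.35 in C-Myc-sh (limma adjusted p = 1.43e-06) and had a difference of -0.01 ± 0.35 in Slc7a5-sh (0.989). The mean of its probe sets gave 1.75 in C-Myc-sh, also called.

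All 4 TRIM and SP genes rose in C-Myc-sh and 0 of 4 were called in Slc7a5-sh by limma, where 1 (SP100) had an unadjusted p under 0.05. TRIM22, a nuclear RING-finger protein, had signals of 10.87, 10.79 and 10.89 in Ctrl-sh, 11.01, 11.07 and 10.83 in Slc7a5-sh, and 12.63, 12.54 and 12.68 in C-Myc-sh. Only C-Myc-sh stood apart. TRIM22 was higher there by 1.77 ± 0.07, 3.41-fold (limma adjusted p = 2.73e-12). SP100, a component of PML nuclear bodies, had signals of 10.57, 10.71 and 10.86 in Ctrl-sh, 10.81, 10.85 and 11.07 in Slc7a5-sh, and 11.33, 11.34 and 11.38 in C-Myc-sh. It had the smallest rise of the 4, 0.64 ± 0.09 (limma adjusted p = 1.08e-05), with Ctrl-sh and Slc7a5-sh overlapping. SP110, also of nuclear bodies, rose by 0.93 ± 0.08 (6.74e-08) and TRIM21, the cytosolic antibody receptor, by 1.03 ± 0.19 (limma adjusted p = 0.000231). The differences of the 4 in Slc7a5-sh ran from 0.12 to 0.20. Another SP110 probe set was called higher in Slc7a5-sh (0.63, limma adjusted p over all probe sets 0.0465). The remaining SP110 probe sets gave 0.00068 to 0.36 there and were not called.

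SAMD9 and SAMD9L, paralogues side by side on chromosome 7 that restrict poxviruses and limit protein synthesis, rose in both knockdowns. SAMD9 signals were 10.19, 10.49 and 10.33 in Ctrl-sh, 10.86, 10.80 and 10.76 in Slc7a5-sh, and 13.04, 13.06 and 12.94 in C-Myc-sh. It was higher by 2.68 ± 0.08 in C-Myc-sh, 6.42-fold (limma adjusted p = 2.91e-14), and by 0.47 ± 0.08 in Slc7a5-sh, 1.39-fold (0.000387). Both genes had fully separated groups in the order Ctrl-sh, Slc7a5-sh, C-Myc-sh. SAMD9L signals were 8.01, 8.42 and 8.29 in Ctrl-sh, 9.10, 9.32 and 9.15 in Slc7a5-sh, and 12.05, 11.96 and 11.85 in C-Myc-sh. It was higher by 3.71 ± 0.12 in C-Myc-sh, 13.1-fold (limma adjusted p = 8.12e-14), and by 0.95 ± 0.12 in Slc7a5-sh, 1.93-fold (2.73e-05). SAMD9L has 3 probe sets, and the other two, both weaker, also rose in C-Myc-sh (3.44 and 3.06). In Slc7a5-sh they gave 0.16 and -1.11, neither called, and the mean of all 3 probe sets gave -0.0013. A second SAMD9 probe set gave 0.30 in Slc7a5-sh, not called (limma adjusted p over all probe sets 0.323).

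RSAD2 (viperin, which makes a chain-terminating nucleotide) and CMPK2 (a nucleotide kinase) are adjacent on chromosome 2. CMPK2 signals were 6.61, 7.18 and 7.42 in Ctrl-sh, 7.18, 6.72 and 6.21 in Slc7a5-sh, and 9.44, 9.60 and 9.70 in C-Myc-sh. Ctrl-sh and Slc7a5-sh overlapped and C-Myc-sh was above both. CMPK2 was higher by 2.50 ± 0.28, 5.67-fold, in C-Myc-sh (limma adjusted p = 1.08e-06), with -0.37 ± 0.28 in Slc7a5-sh (0.508). RSAD2 signals were 4.68, 3.17 and 5.51 in Ctrl-sh, 5.22, 4.91 and 1.46 in Slc7a5-sh, and 6.40, 6.11 and 6.72 in C-Myc-sh. Only in C-Myc-sh were all its arrays above 5.77, and they did not overlap the others. Its difference of 1.96 ± 1.03 was not called (limma adjusted p = 0.186), and the rise above the level was 0.64. A second RSAD2 probe set, lower in Ctrl-sh, rose by 4.67 in C-Myc-sh (adjusted p over all probe sets 0.00324).

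Of the 4 proteins that act on RNA, 3 rose and 1 fell in C-Myc-sh. EIF2AK2, also called PKR, shuts down translation when it binds double-stranded RNA. Its signals were 10.63, 10.43 and 10.63 in Ctrl-sh, 10.98, 11.01 and 11.02 in Slc7a5-sh, and 12.83, 12.72 and 12.72 in C-Myc-sh. The groups were separated, and the Slc7a5-sh arrays agreed to within 0.1. EIF2AK2 was higher by 2.19 ± 0.07 in C-Myc-sh, 4.57-fold (limma adjusted p = 1.15e-13), and by 0.44 ± 0.07 in Slc7a5-sh, 1.35-fold (0.000356). With the mean of its probe sets the Slc7a5-sh difference was 0.28 and not called. Another EIF2AK2 probe set, with a Ctrl-sh mean of 9.74, gave -0.043 in Slc7a5-sh (limma adjusted p over all probe sets 0.904). The remaining one gave 0.45 (0.410), and neither was called. DDX60 signals were 4.12, 1.21 and 4.53 in Ctrl-sh, 4.65, 4.59 and 1.64 in Slc7a5-sh, and 10.00, 10.15 and 9.85 in C-Myc-sh. Ctrl-sh and Slc7a5-sh were all below 5.77 and C-Myc-sh between 9.85 and 10.15. DDX60 was higher by 6.71 ± 0.93 (limma adjusted p = 1.14e-05), which was 4.23 or 18.7-fold above the level. ADAR, which edits adenosine to inosine in double-stranded RNA, rose by 0.90 ± 0.06 in C-Myc-sh (limma adjusted p = 1.55e-09), with 0.12 ± 0.06 in Slc7a5-sh (0.269).

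ISG20, a 3′ to 5′ exonuclease, fell in C-Myc-sh, and its 2 probe sets disagreed in Slc7a5-sh. Its signals were 10.96, 10.88 and 10.89 in Ctrl-sh, 11.31, 11.04 and 11.42 in Slc7a5-sh, and 10.24, 10.49 and 10.44 in C-Myc-sh. The Slc7a5-sh arrays lay wholly above Ctrl-sh and the C-Myc-sh arrays wholly below. ISG20 was higher by 0.35 ± 0.09 in Slc7a5-sh (limma adjusted p = 0.0187) and fell by 0.52 ± 0.09 in C-Myc-sh (0.000257). The direct difference between C-Myc-sh and Slc7a5-sh was -0.87 ± 0.09 (limma adjusted p = 9.65e-07). The fall in C-Myc-sh was called in all 19 alternatives run. The second ISG20 probe set, with a Ctrl-sh mean of 10.79, gave -0.058 in Slc7a5-sh, not called (limma adjusted p over all probe sets 0.802), and -0.70 in C-Myc-sh (4.56e-06). The difference of the first in Slc7a5-sh was not called without Ctrl-sh replicate 2 (0.33) or 3 (0.34) or without Slc7a5-sh replicate 1 (0.32) or 3 (0.27).

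Of the 5 surface or secreted proteins and their helpers, 3 rose in C-Myc-sh and 2 in Slc7a5-sh. RTP4, a receptor chaperone, had signals of 6.01, 6.97 and 5.98 in Ctrl-sh, 7.78, 7.27 and 7.24 in Slc7a5-sh, and 8.83, 8.78 and 9.30 in C-Myc-sh. The 3 groups did not overlap. RTP4 was higher by 2.65 ± 0.31 in C-Myc-sh, 6.29-fold (limma adjusted p = 1.72e-06), and by 1.11 ± 0.31 in Slc7a5-sh, 2.16-fold (0.0232). BST2, also called tetherin, holds budding virions at the cell surface, and its signals were 10.22, 10.20 and 10.07 in Ctrl-sh, 10.68, 10.85 and 10.87 in Slc7a5-sh, and 11.58, 11.35 and 11.39 in C-Myc-sh. The groups were separated, with Slc7a5-sh midway. BST2 was higher by 1.28 ± 0.08 in C-Myc-sh, 2.42-fold (limma adjusted p = 1.12e-09), and by 0.64 ± 0.08 in Slc7a5-sh, 1.55-fold (6.26e-05). PLSCR1, a phospholipid scramblase, rose by 1.37 ± 0.07 in C-Myc-sh (limma adjusted p = 5.11e-11), with -0.00046 in Slc7a5-sh. With the mean of its probe sets the C-Myc-sh difference was 0.70 and not called. One PLSCR1 probe set, with all group means below 5.77, gave -0.53 in C-Myc-sh, not called.

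LY6E, a GPI-anchored surface protein, did not pass the test in either knockdown. Its signals were 7.29, 7.09 and 6.12 in Ctrl-sh, 6.70, 6.80 and 6.09 in Slc7a5-sh, and 7.26, 6.67 and 7.21 in C-Myc-sh. All 3 groups overlapped, and the differences were 0.21 ± 0.42 in C-Myc-sh (limma adjusted p = 0.800) and -0.30 ± 0.42 in Slc7a5-sh (0.757). LGALS3BP, a secreted glycoprotein, was near background in Ctrl-sh (3.09 ± 1.28, SD, n = 3) and C-Myc-sh (5.32 ± 1.58) and just above the level in Slc7a5-sh (5.83 ± 0.23). Its differences of 2.22 ± 0.98 and 2.74 ± 0.98 were not called (limma adjusted p = 0.108 and 0.0828). Without Ctrl-sh replicate 2 both were called (2.96 and 3.48), and without C-Myc-sh replicate 3 the first was (3.13). Above the level the differences were only 0.30 in C-Myc-sh and 0.11 in Slc7a5-sh.

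Among the last 3 members EPSTI1 rose the most. EPSTI1, an epithelial-stromal interaction protein, had signals of 6.02, 6.24 and 5.73 in Ctrl-sh, 6.76, 6.14 and 6.72 in Slc7a5-sh, and 11.04, 10.86 and 11.06 in C-Myc-sh. C-Myc-sh stood far above the other groups, which overlapped. The difference was 4.99 ± 0.25 in C-Myc-sh, 31.7-fold (limma adjusted p = 2.30e-11), and 0.54 ± 0.25 in Slc7a5-sh (0.189). LAP3, a leucine aminopeptidase that trims peptides, had signals of 12.75, 12.70 and 12.69 in Ctrl-sh, 12.40, 12.53 and 12.76 in Slc7a5-sh, and 12.97, 12.89 and 13.00 in C-Myc-sh. Its small rise in C-Myc-sh, 0.25 ± 0.07 (limma adjusted p = 0.0171), was not called without Ctrl-sh replicate 2 (0.24) or 3 (0.23) or C-Myc-sh replicate 3 (0.22), nor with arrays centred on their medians (0.12), with the floor at 5.77 or without the variance trend. The floor left the signals and the difference of LAP3 itself unchanged. In Slc7a5-sh its difference was -0.14 ± 0.07 (limma adjusted p = 0.269), and without Slc7a5-sh replicate 3 it was called lower (-0.24). XAF1, a pro-apoptotic antagonist of XIAP, had means of 5.19, 4.05 and 6.93, with C-Myc-sh above both other groups. Its difference from Ctrl-sh, 1.74 ± 0.77, was not called (limma adjusted p = 0.108). The rise above the level was 1.12. The measured difference was called without Slc7a5-sh replicate 1 and with the 6 arrays alone (1.74 in both). A second XAF1 probe set, near background in Ctrl-sh, rose by 2.997 in C-Myc-sh (limma adjusted p over all probe sets 0.0121).

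In the Slc7a5-sh cells 12 of the antiviral genes were higher than in the control cells. The called members were OAS1, MX2, IFI27, IFITM3, PARP9, DTX3L, SAMD9, SAMD9L, EIF2AK2, ISG20, BST2 and RTP4, with differences of 0.35 to 1.11 for the 11 that were above the level. None of the 42 was called lower by limma at an adjusted p under 0.05, and at an unadjusted p under 0.05 19 were higher and 0 lower. The share of all genes at that unadjusted p was not counted, so the 19 cannot be set against it. Without Slc7a5-sh replicate 3, 1 (LAP3) was called lower. In all, 12 of 42 members were called, all higher. Over all genes 12.8% were called, 7.31% higher and 5.53% lower. By at least 1, 3 members were called higher (MX2, IFI27 and RTP4), against 0.582% of all genes. The median log2 difference was 0.24 over the members and 0.0265 over all genes. The Slc7a5-sh arrays lay wholly above the Ctrl-sh arrays for 17 members and wholly below for 2 (OASL and IFI16), against 14.7% and 12.4% of all genes. Both knockdowns were compared with the same 3 Ctrl-sh arrays, so their differences are given side by side and no overlap is tested.

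**Figure D2:**
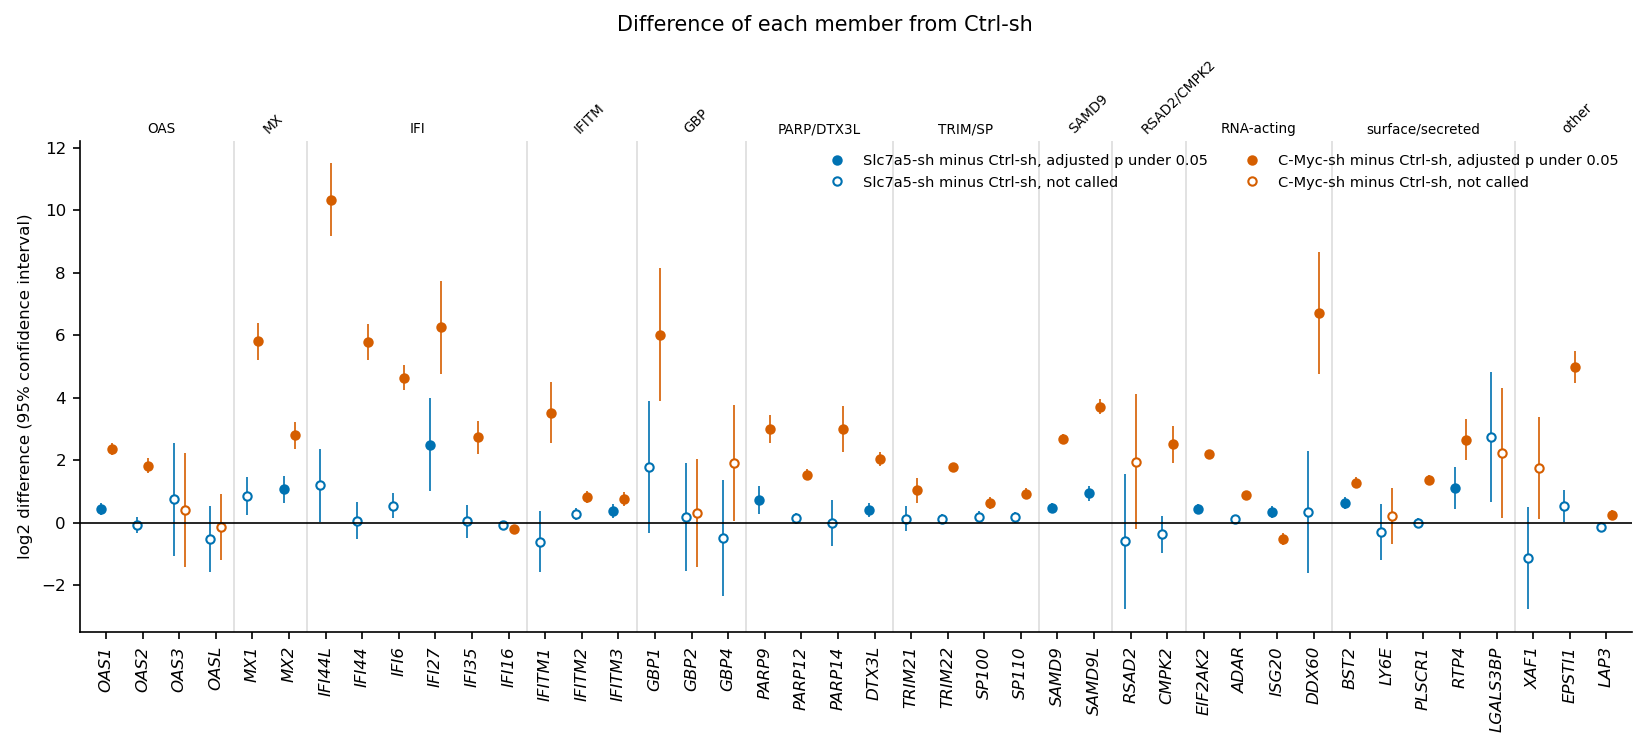
Log2 difference from Ctrl-sh (vertical axis, with 95% confidence intervals from limma) of each of the 42 genes (horizontal axis, by family) in Slc7a5-sh (blue) and C-Myc-sh (orange); filled points have an adjusted p under 0.05 and open points do not. In C-Myc-sh 32 filled points lie above 0 and 2 below, and in Slc7a5-sh 12 lie above 0 and 0 below; the widest intervals belong to genes near background in Ctrl-sh.

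For the Slc7a5-sh calls, leaving out any 1 array kept 6 of the 12 (OAS1, MX2, SAMD9, SAMD9L, EIF2AK2 and BST2), and MX2 and BST2 were called in all 19 alternatives run. IFI27 lost its call without any 1 array except Ctrl-sh replicate 3, and its difference was 1.64 without Ctrl-sh replicate 2. IFITM3 lost it without Ctrl-sh replicate 1 (0.37) or 3 (0.33) or Slc7a5-sh replicate 3 (0.27). None of the losses given for single arrays turned the direction. PARP9 lost it without Ctrl-sh replicate 1 (0.63) or 2 (0.60) or Slc7a5-sh replicate 1 (0.69) or 3 (0.73). DTX3L lost it without Ctrl-sh replicate 1 (0.32) or Slc7a5-sh replicate 2 (0.31), and RTP4 without Ctrl-sh replicate 1 (0.96) or 3 (0.94) or Slc7a5-sh replicate 1 (0.94). With signals under 5.77 raised to it, IFI27 was left with a difference of 0.02 and lost its call. IFITM3, PARP9, DTX3L, ISG20 and RTP4 also lost their calls there. None of their own signals was raised and their differences stayed the same. Only the spread that limma borrows across genes and the adjustment over all genes differed for them. Without the variance trend MX2, SAMD9L, EIF2AK2 and BST2 kept theirs, and OAS1 (limma adjusted p = 0.0661) and SAMD9 (0.0539) lost theirs there and in no other alternative. With the mean of all probe sets IFI27, IFITM3, SAMD9L, EIF2AK2 and ISG20 were not called, with the 6 arrays alone IFI27, PARP9, DTX3L and RTP4 were not, and with arrays centred on their medians ISG20 was not. PARP9 was not called with its other probe set (0.66).

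Set directly against Slc7a5-sh, the C-Myc-sh cells had higher signals for 33 of 42 members and lower for 2 (limma, adjusted p under 0.05), against 13.2% and 13.8% of all genes (26.9% in either direction). By at least 1, 25 members were called higher, against 3.38% of all genes. The median log2 difference was 1.75 over the members and 0.0239 over all genes. With arrays centred on their medians, the split over all genes moved from 2601 higher and 2724 lower to 1869 and 3251. The 2 lower members were ISG20 and IFI16. IFI44L differed by 9.13 ± 0.55 (limma adjusted p = 5.47e-10), MX1 by 4.93 ± 0.29 (3.24e-10) and BST2 by 0.64 ± 0.08 (9.39e-06). XAF1, not called in C-Myc-sh against Ctrl-sh, was called here (2.88 ± 0.77, limma adjusted p = 0.00797). IFI16 was lower by 0.15 ± 0.05 (SE) on the log2 scale in C-Myc-sh (0.0423), a call that held without Slc7a5-sh replicate 2 or C-Myc-sh replicate 3 and was lost without any 1 of the other 7 arrays, where it ranged from -0.15 to -0.13. The IFI16 call was also lost with the mean of its probe sets (-0.058), without the variance trend, with the 6 arrays alone and with the replicate block, and under quantile normalization the difference turned to 0.037. Of the 33 higher calls 28 were made in every alternative run, the exceptions being IFITM3, GBP1, PARP14, PLSCR1 and XAF1, whose second probe set gave 1.20 (limma adjusted p over all probe sets 0.401). OAS3, OASL, GBP2, GBP4, RSAD2, LY6E and LGALS3BP were not called. Of these, GBP4 was called without Slc7a5-sh replicate 1 (2.84) or 2 (2.96), and RSAD2 without Slc7a5-sh replicate 1 (3.23). With the mean of their probe sets GBP4 (2.36), RSAD2 (4.15) and OASL (1.91) were called. The second probe sets of OASL and RSAD2, near background in Slc7a5-sh, were higher by 3.42 and 5.76 (limma adjusted p over all probe sets 0.0315 and 0.000626). That of GBP4 was not called (2.31, limma adjusted p over all probe sets 0.279).

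Genes beside each other on a chromosome did not always move alike. The 42 members include 10 pairs that are next to each other among annotated genes. SAMD9 and SAMD9L, MX2 and MX1, PARP9 and DTX3L, and IFI44L and IFI44 rose together in C-Myc-sh. In the OAS cluster on chromosome 12, OAS1 and OAS2 rose, while OAS3 between them was near background in every group. GBP1 was called and its neighbour GBP2, near background in every group, was not. On chromosome 11, IFITM1 rose by 3.52 between IFITM2 and IFITM3, which rose by 0.82 and 0.76.

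The 42 members were covered by 78 probe sets, and 21 members had several. Over the 78, tested with all probe sets of the array, 54 were called higher in C-Myc-sh than in Ctrl-sh and 5 lower, against 13.6% and 11.7% of all 41091 probe sets. Of the 21 members with several probe sets, all probe sets pointed up for 16 and down for 2 (IFI16 and ISG20), and their signs differed for 3 (OASL, GBP1 and PLSCR1). In Slc7a5-sh 14 of the 78 were called higher and 0 lower by limma, against 5.19% and 4.33% of all probe sets. At an unadjusted p under 0.05, 27 were higher and 2 lower, for which the share of all probe sets was not counted. Signs differed within 11 of the 21 members.

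**Figure D3:**
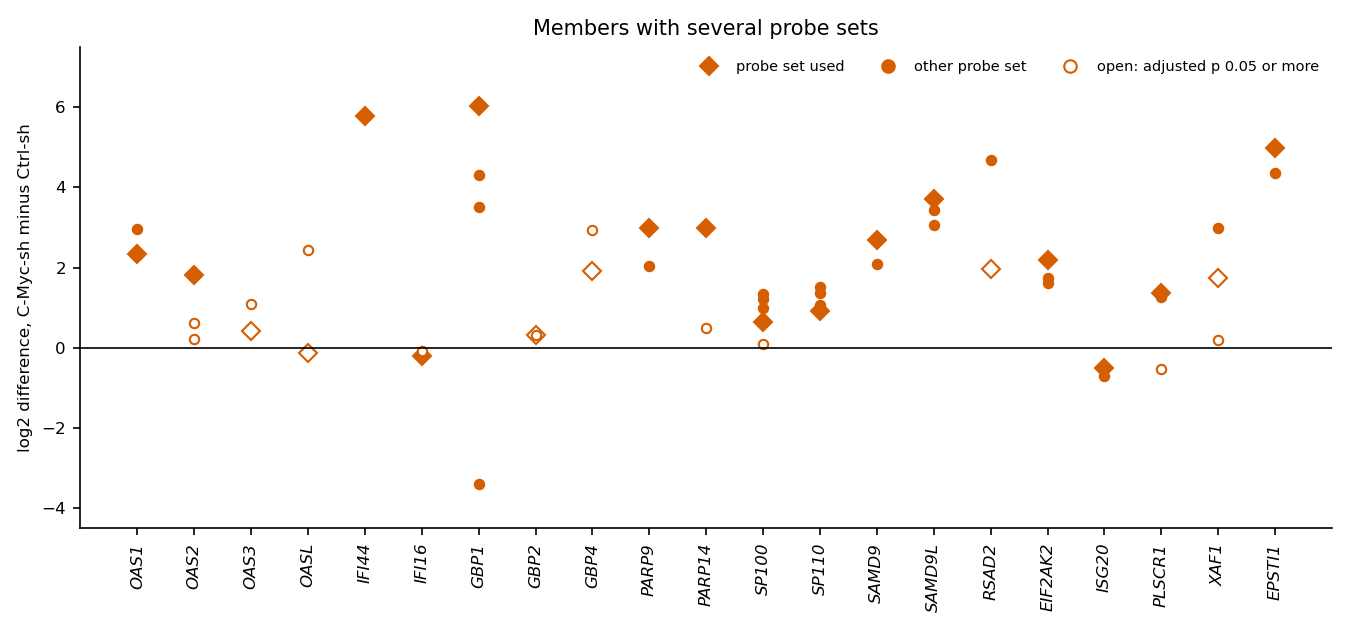
Log2 difference between C-Myc-sh and Ctrl-sh (vertical axis) for every probe set of the 21 members with more than 1 probe set (horizontal axis); diamonds are the probe sets used, circles the others, and open symbols have an adjusted p of 0.05 or more. All symbols lie above 0 for 16 genes, and the lowest is the GBP1 probe set at -3.39.

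Other genes of the interferon pathway were taken from lists by role. Their counts stand against 16.0% of all genes called higher and 14.5% called lower in C-Myc-sh, and 7.31% and 5.53% in Slc7a5-sh. Of 18 interferon genes measured, 0 were called in either knockdown by limma, and the means of all 18 were below 5.77 in Ctrl-sh, those of 16 in the Slc7a5-sh group and those of 12 in C-Myc-sh. At an unadjusted p under 0.05 the count was also 0 in both. The summed linear signal of the 18 was 398 to 509 on the Ctrl-sh arrays and 474 to 622 on the Slc7a5-sh arrays. On the C-Myc-sh arrays it was 641 to 823, above the Ctrl-sh arrays. The median log2 signal of all probe sets was also higher on the C-Myc-sh arrays (6.20 to 6.26) than on the Ctrl-sh arrays (6.05 to 6.14). The part of this shift in the sums was not tested. IFNB1 had means of 1.75, 1.45 and 1.41. The interferon alpha genes are near-identical copies, so that their probe sets may share signal. The ligands with the smallest p in C-Myc-sh were IFNL2 (1.52 ± 0.73, limma adjusted p = 0.145) and IFNK (-2.27 ± 1.15, 0.172).

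Of the 9 receptor and kinase genes, 5 rose and 1 fell in C-Myc-sh, and 1 rose in Slc7a5-sh. The 1 gene that fell and the 1 that rose in Slc7a5-sh are each near the share of all genes. The kinases TYK2 and JAK1 rose in C-Myc-sh by 1.71 ± 0.10 (limma adjusted p = 1.18e-10) and 0.85 ± 0.06 (4.14e-09). IL10RB, a chain of the lambda interferon receptor, rose in Slc7a5-sh by 0.62 ± 0.14 (limma adjusted p = 0.00560). Of 6 transcription factors measured, 5 rose in C-Myc-sh, IRF9 by 3.72 ± 0.31 (limma adjusted p = 2.52e-08) and IRF7, which drives interferon gene transcription, by 3.29 ± 0.30 (8.51e-08). In Slc7a5-sh 1 of the 6 rose, IRF1, by 0.78 ± 0.13 (limma adjusted p = 0.000498).

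Of 9 genes for the IFIT proteins, which bind viral RNA caps and ends, and for ISG15, a ubiquitin-like modifier, with its enzymes, 8 rose in C-Myc-sh and 5 in Slc7a5-sh. IFIT3 rose by 5.19 ± 0.12 in C-Myc-sh (limma adjusted p = 2.11e-15) and by 0.88 ± 0.12 in Slc7a5-sh (5.31e-05). ISG15 rose by 4.65 ± 0.11 in C-Myc-sh (limma adjusted p = 4.73e-15) and IFIT2 by 1.20 ± 0.16 in Slc7a5-sh (5.90e-05). Of 12 sensors of foreign nucleic acid, 5 rose and 2 fell in C-Myc-sh and 2 rose in Slc7a5-sh. The 2 that fell are near the 14.5% of all genes called lower. IFIH1 (MDA5, which senses long double-stranded RNA) rose by 3.93 ± 0.09 in C-Myc-sh (limma adjusted p = 3.49e-15) and by 0.54 ± 0.09 in Slc7a5-sh (0.000586). TLR3, an endosomal receptor for double-stranded RNA, was near background in Ctrl-sh and was called in Slc7a5-sh (2.12 ± 0.67, limma adjusted p = 0.0457). AIM2, a DNA sensor, fell by 1.10 ± 0.08 in C-Myc-sh (limma adjusted p = 1.86e-09). Of 6 feedback inhibitors, 3 rose in C-Myc-sh, among them SOCS1 (2.14 ± 0.17, limma adjusted p = 9.50e-09) and PTPN6 (1.76 ± 0.20, 1.04e-06), and 0 were called in Slc7a5-sh by limma, where 1 (SOCS1) had an unadjusted p under 0.05. In the figure of called genes the lists stand beside the members.

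**Figure D4:**
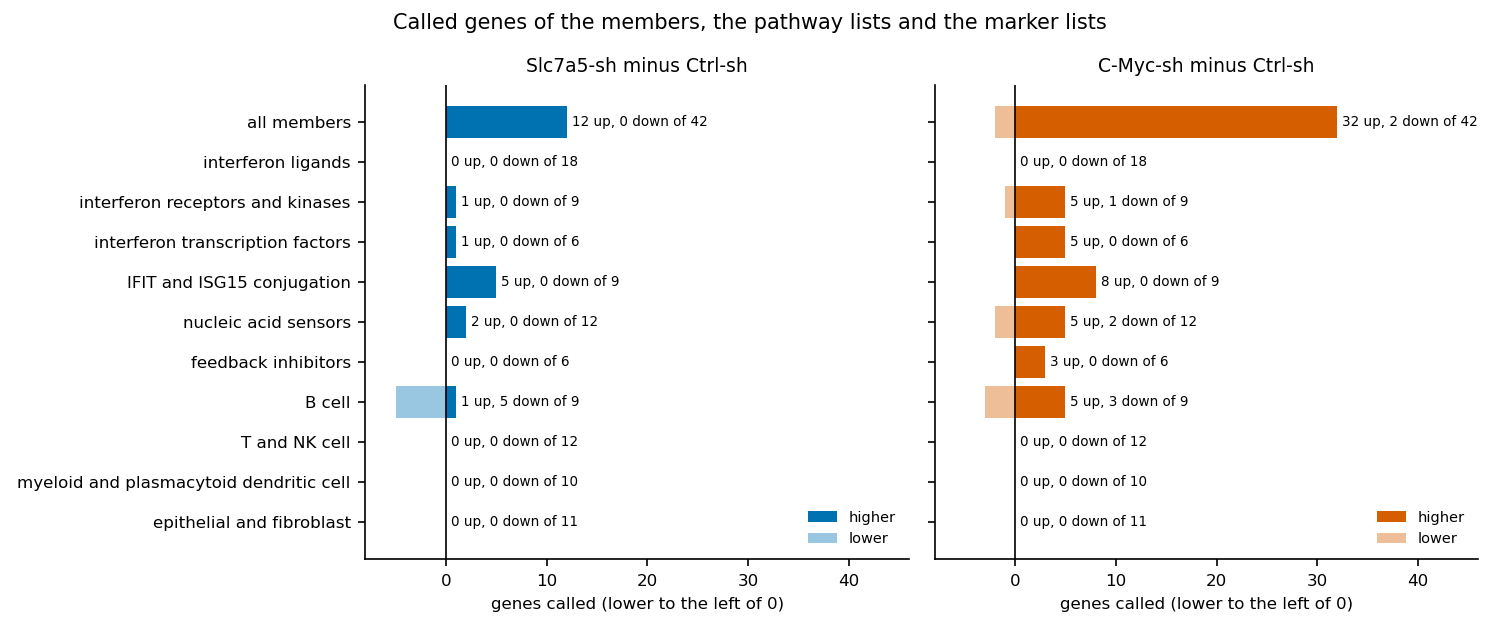
Number of genes called at an adjusted p under 0.05 (horizontal axis; higher to the right of 0, lower to the left) among the 42 members, the 6 pathway lists and the 4 marker lists (vertical axis), in Slc7a5-sh (left panel) and C-Myc-sh (right panel) against Ctrl-sh. The members have 12 and 32 called higher, while the ligands and the markers of T and NK, of myeloid and of epithelial or fibroblast cells have 0 called in both panels.

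Markers of other cell types were read in the same fit. Of 10 markers of myeloid cells and of plasmacytoid dendritic cells, 0 were called by limma in either knockdown. The plasmacytoid cells are the main interferon producers in blood. Among these 10 markers, 9, 10 and 9 had means below 5.77 in the Ctrl-sh, Slc7a5-sh and then the C-Myc-sh group. Their summed linear signal was 246 to 361, 237 to 409 and 288 to 338 on the arrays of these groups, which overlapped. CLEC4C, which marks plasmacytoid dendritic cells, had means of 3.99, 4.38 and 4.33, and CD14, of monocytes, 3.39, 3.78 and 4.45. Of 12 T and NK cell markers 0 were called, with summed signals of 483 to 705, 329 to 500 and 459 to 642. Of 11 epithelial and fibroblast markers 0 were called, with 784 to 962, 763 to 835 and 628 to 863. At an unadjusted p under 0.05, 0 of the myeloid and dendritic markers passed in either knockdown, and 1 of the T and NK markers did (PRF1, lower in Slc7a5-sh). Of the epithelial and fibroblast markers, COL1A1 was lower in both knockdowns and EPCAM higher in C-Myc-sh at that p. The B-cell markers moved in both directions, 1 up and 5 down in Slc7a5-sh and 5 up and 3 down in C-Myc-sh, and their part in the members' values was not tested.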

How the data were processed

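Total RNA of 9 Daudi cultures was labelled by 3′ in vitro transcription and hybridised to 1 short-oligonucleotide array each, per the labels' protocols. The deposited table holds a log2 signal for each probe set and array; the submitters' processing notes name MAS5. After conversion to linear scale the trimmed mean was 497 on every array, so signals are relative within an array. Of 54613 probe sets, 41091 had 1 gene symbol, 1801 several and 11721 none; only the first were used, which left 19775 genes. The number of arrays limits the precision.

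Groups came from the sample titles. One limma 3.58.1 fit (R 4.3.3; lmFit, eBayes with trend, 6 residual degrees of freedom) covered all 9 arrays and all genes with no filter on low values. Tests were two-sided and adjusted by Benjamini-Hochberg over all genes of a contrast; the script was tested on simulated data. Named with all arrays were, in each family, the members with the largest and smallest change in C-Myc-sh, and those called in Slc7a5-sh or lower in C-Myc-sh; pathway genes are the 2 of smallest p per list, and other genes or probe sets were chosen after their values were seen. The members and lists were chosen with earlier results of these data known. Replicate numbers did not pair the samples. Alternatives covered the filter, a floor, normalization, the probe set, the variance model, the arrays fitted, a replicate block and leaving out each array. Promoters came from RefSeq (GRCh38.p14).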

Additional observations from a re-analysis of the deposited data

How the results depend on the processing

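The members' differences and the counts over members and over all genes were computed again under 19 alternatives, of which 17 to 19 gave a value for each member; the pathway, marker and promoter counts were not. In C-Myc-sh against Ctrl-sh, 29 of the 32 members called higher were called higher in every alternative run, the exceptions being LAP3, PLSCR1 and GBP1. The members called higher numbered 21 (of the 31 measured) without probe sets that can bind related transcripts, and 31 to 33 without 1 array each. Those called lower numbered 1 with quantile normalization, without such probe sets, or without the variance trend, and 2 without any 1 array. The median of the members was 2.12 with the filter on low values, 1.80 with the floor, 1.87 with median centring, 2.19 without such probe sets, and 1.92 to 2.10 without 1 array each. The filter used the mean of all 9 arrays and kept 34 members. Of these, IFI44L and IFI27 passed only through their C-Myc-sh signals, so the filtered median is no independent check. All genes called numbered 5424 to 6149 without 1 array each.

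In Slc7a5-sh against Ctrl-sh, members called higher numbered 6 with the floor, 7 with the mean of all probe sets, 4 without the trend, and 8 to 11 without 1 array each; those called lower 0 to 1. Their median was 0.12 with the floor, 0.45 without probe sets that can bind related transcripts, and 0.20 to 0.35 without 1 array each. All genes called numbered 1250 with the mean of probe sets, 778 without the trend, and 1948 to 2513 without 1 array each.

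In C-Myc-sh against Slc7a5-sh the median was 1.59 with the floor, 1.63 with median centring, 1.60 with the mean of probe sets, 1.64 with the probe set highest in Ctrl-sh, 1.90 without probe sets that can bind related transcripts, and 1.58 to 1.77 without 1 array each. Members called lower numbered 1 with quantile normalization, the mean of probe sets, no such probe sets, no trend, the 6 arrays alone or the replicate block, and 1 to 2 without 1 array each. Those called higher numbered 33 to 35 without 1 array each, and 22 without probe sets that can bind related transcripts. All genes called numbered 4747 to 5252 without 1 array each.

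Among called differences, the sign turned for SAMD9L in Slc7a5-sh with the mean of its probe sets (-0.0013), IFI16 with quantile normalization (0.017 in C-Myc-sh against Ctrl-sh and 0.037 against Slc7a5-sh), GBP1 with the probe set highest in Ctrl-sh (-3.39 and -2.73), and PLSCR1 in C-Myc-sh without probe sets that can bind related transcripts (-0.53). Signs also turned for some differences that were not called, which are not listed. The 4 values that turned with the choice of probe set come, by construction, from other probe sets or, for SAMD9L, from a mean that includes them. For IFI16 the cause was not tested. Same-numbered samples did not deviate together (r from -0.0228 to 0.0205), and with the replicate block 2482, 5978 and 5245 genes were called in Slc7a5-sh and C-Myc-sh against Ctrl-sh and in C-Myc-sh against Slc7a5-sh. With 3 arrays a group and signals near background in Ctrl-sh for 10 members, differences of those members are uncertain in size.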
